A study of Rattus norvegicus with 54 samples.

Results

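The comparison described here sets epididymal fat of obese Zucker rats given a PPARγ ligand against epididymal fat of untreated lean rats, and asks which differences from lean remain with a ligand and which appear with it. It uses 15 of the 54 arrays of the series, chosen by their titles: the 12 adipose arrays of the ligand groups and the 3 lean adipose arrays. The series as a whole profiled adipose tissue, liver and skeletal muscle of male Zucker rats on Affymetrix Rat Expression 230A arrays. The ligand groups were fatty (fa/fa) rats given Pioglitazone, Rosiglitazone or Troglitazone, which are thiazolidinediones, or AG035029, a compound known here by its code name. The 3 adipose arrays of untreated fatty (fa/fa) rats on normal chow did not enter the contrast, and were used beside it to sort each difference from lean. The lean rats were fa/+, on normal chow, and so carry 1 copy of the fa allele, a mutation of the leptin receptor gene Lepr, which the fatty rats carry on both copies. Each array was made from the pooled RNA of 2 rats and each group had 3 arrays, so a group stands for 6 rats, and the spread between arrays is a spread between pools. Dose, length of treatment and age are not given in the sources used here, and the lean rats received no ligand, so the difference from lean holds genotype, obesity and treatment together.

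PPARγ is the nuclear receptor that drives the formation of fat cells and switches on their genes for taking up, binding, storing and burning fatty acids. Thiazolidinediones activate it and are used as insulin sensitisers, and adipose tissue is where the receptor is most abundant. Epididymal fat of a fatty rat holds enlarged adipocytes together with macrophages, vessels, stromal cells and a mesothelial cover, and a tissue sample carries RNA of all of them.

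The level of a gene is given below as its probe set's signal, a linear intensity scaled to the same array-wide mean on every array, and a difference as that of log2(signal + 20), with its standard error (SE, 12 ligand and 3 lean arrays) after ±. That added constant understates the differences of weakly expressed genes, and signals of different probe sets cannot be set against each other. Of 15866 probe sets, the 9519 with the higher mean signals over the 18 adipose arrays were tested with limma. As 12 of those 18 arrays had a ligand, a gene high only with ligand passed more readily than one high only in lean. A difference was called at a Benjamini-Hochberg adjusted p under 0.05, two-sided, over all of the 9519. All 8 adipocyte markers analysed were tested, and their summed signal was 52313 to 73369 in the ligand arrays (median 66489), 44897 to 52316 in the untreated obese arrays and 48934 to 59734 in the lean arrays; Adipoq was not analysed here. The RNA was extracted from whole tissue, so fewer cells of a type and less RNA per cell cannot be told apart in any result below. Array medians lay between 205.3 and 247.6 over the 18 adipose arrays.

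A pair of ligand arrays stood apart. The deviations of the rosiglitazone replicate 2 array from the mean of the 18 arrays correlated at 0.19 with those of the untreated obese mean across 9519 probe sets, against -0.15 to -0.57 for the other 11 ligand arrays, and at -0.18 with those of the other rosiglitazone arrays. That array also had 2052 for Krt19 and 1808 for Krt8, keratin genes counted among the mesothelial markers. Other mesothelial markers were not high there: Msln was at 463 and Wt1 at 217, against 1729 to 3802 and 351.5 to 688 in lean. Krt8 and Krt19 were also at 1591 and 1716 on the untreated obese replicate 1 array, and Krt8 at 1480 on the AG035029 replicate 1 array. The AG035029 replicate 1 array had a summed signal of epididymis and testis markers of 3499, mainly Prm1 at 1685 and Adam7 at 1362, where the other ligand arrays had sums of 162 to 407. These genes across an array share library and scaling, so the correlations are descriptions. Counts below are given with all 12 ligand arrays, and in the next paragraph without these arrays too.

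Ligand-treated obese fat differed from lean fat widely. Of the 9519 probe sets, 3380 were called, 1374 of them higher and 2006 lower in ligand-treated fat, which is 35.5% of those tested, 14.4% higher and 21.1% lower. The median half-width of the 95% interval of a difference was 0.27, and 178 probe sets were higher and 200 lower by more than 1 on the log2 scale. The signals of all 12 ligand arrays lay on one side of all 3 lean arrays for 1870 probe sets (19.6%, 8.15% above and 11.5% below), of which 1828 (19.2%) were also called. Without the rosiglitazone replicate 2 array 3535 probe sets were called, and without both arrays that stood apart 3587. The excess of lower calls depended on scaling. After centring each array on its median, which raised the median difference of all probe sets by 0.11, 1883 were higher and 1246 lower, so that 60.2% of the calls were higher, against 40.7% as deposited and 49.5% after quantile normalisation. The same fit called 573 probe sets (6.02%, of which 3.16% higher and 2.86% lower) between untreated obese and lean fat, a contrast with 3 arrays a side and the same lean arrays.

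The 10 largest rises that separated all ligand arrays from all lean arrays were led by Fabp3, Gys2, Ptprn, Krt79 and Bdh1. That separation was a condition for naming these genes, the 10 largest falls and the 5 largest changes per direction in each class further below. Lack of overlap with lean is therefore not a separate result for any of them. Fabp3, the fatty acid binding protein best known from heart and muscle (NCBI Gene 79131, chromosome 5), had signals of 7705 to 14487 with a median of 11588 in the ligand arrays, 231, 402 and 583 in the untreated obese arrays and 88.5, 219 and 221 in the lean arrays. The lowest ligand array was far above every other array, and the log2 difference from lean was 5.93 ± 0.23 (limma adjusted p = 8.06e-12). Gys2, the glycogen synthase of liver (NCBI Gene 25623, chromosome 4), had 628 to 1923 with a median of 1474 in the ligand arrays, 202, 129 and 157 in untreated obese and 133, 154 and 64.9 in lean. Its lowest ligand value came from the rosiglitazone replicate 2 array and still lay above all 6 arrays without ligand, with a log2 difference from lean of 3.44 ± 0.22 (adjusted p = 3.1e-09). Bdh1, which interconverts the ketone bodies in mitochondria (NCBI Gene 117099, chromosome 11), had 215 to 399 with a median of 324 with ligand, 81.1, 41.7 and 92.5 in untreated obese and 20.2, 21.1 and 26.4 in lean. The groups did not overlap, but the lean signals were close to the added constant, so its log2 difference of 3.04 ± 0.17 lay between 2.0 and 3.60 over the alternative settings. Cyp4b1, a cytochrome P450 that hydroxylates fatty acids, had a log2 difference of 2.77 ± 0.13, with 6698 to 11287 with a median of 8527 in the ligand arrays and 1227, 1237 and 1213 in the lean arrays. Nudt7, the peroxisomal enzyme that splits coenzyme A, had 1809 to 3121 with a median of 2302 with ligand and 330.2, 294 and 332 in lean, a log2 difference of 2.79 ± 0.12. All ligand arrays were above the lean arrays for both.

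The other large rises were of mixed kind. Krt79, a keratin (NCBI Gene 683720), had 1624 to 3003 with a median of 2031 in the ligand arrays, 571, 519 and 614 in untreated obese and 187, 258 and 148 in lean, a log2 difference from lean of 3.27 ± 0.16 (adjusted p = 1.35e-10). Ptprn, a protein of the membrane of secretory granules, had 563 to 1074 with a median of 862 with ligand and 57.8, 47.4 and 66.8 in lean, a log2 difference of 3.42 ± 0.20. For both genes no ligand array overlapped the lean arrays, and the untreated obese arrays lay between. Abhd12, a lipase of lysophosphatidylserine, had 935 to 2628 with a median of 1953 with ligand and 335, 324 and 255 in lean, a log2 difference of 2.56 ± 0.17. Its ligand arrays did not overlap the lean arrays. Cela1, known as pancreatic elastase, had 142 to 528 with a median of 219 with ligand, 509, 447 and 462 in untreated obese and 21.0, 25.1 and 27.1 in lean. It was higher than lean by 2.56 ± 0.26, 1.64 to 3.06 over the alternatives, and untreated obese fat was higher still. Alb, serum albumin, stood apart in pattern. The probe set named by the rule had 1233 to 5755 with a median of 3605 in the ligand arrays, 106, 161 and 133 in untreated obese and 609, 475 and 272 in lean, so that the ligand arrays were the highest and untreated obese the lowest. The log2 difference from lean was 2.89 ± 0.26 with ligand (adjusted p = 2.26e-07) and -1.57 in untreated obese, and its other probe set gave 2.27 and -2.16. None of the other 6 hepatocyte markers passed the filter for testing. Ttr was at 49.0 to 166 in the ligand arrays, 138 to 201 in untreated obese and 115 to 266 in lean. In the ligand arrays Fgb was at 58.4 to 144, Ahsg at 31.6 to 102, Cps1 at 38.3 to 91.9, Fga at 8.20 to 51.1 and Apoa1 at 3.90 to 34.2.

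**Figure D1:**
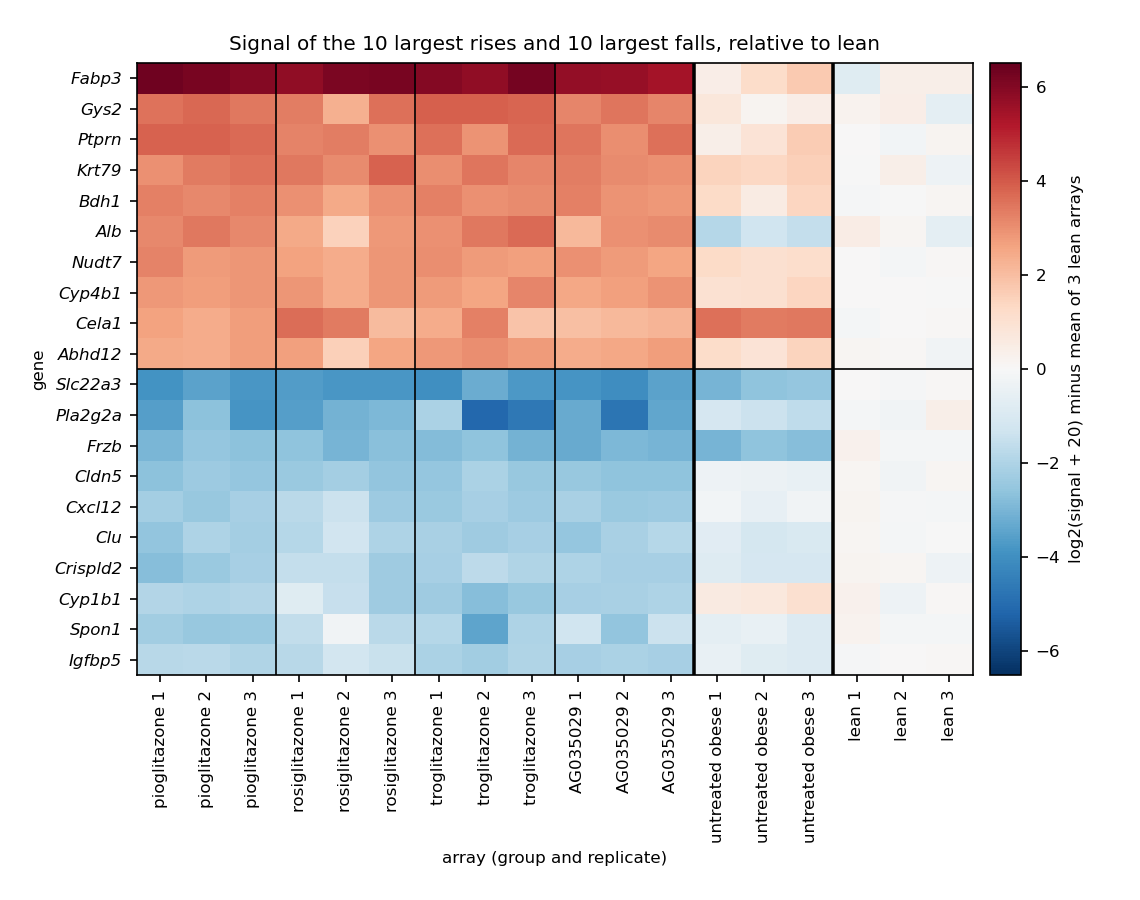
Heat map of the 10 largest rises and 10 largest falls over the 18 adipose arrays, coloured by log2(signal + 20) minus the lean mean of each gene. The 12 ligand arrays share the colour of each row, palest for Spon1 on the rosiglitazone replicate 2 array, Fabp3 is the strongest rise, and the untreated obese arrays are on the same side of lean in Frzb and Cela1 but not in Alb or Cyp1b1.

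The 10 largest falls began with Slc22a3 and Pla2g2a. Slc22a3, an organic cation transporter (NCBI Gene 29504, chromosome 1), had 64.7 to 126 with a median of 79.95 in the ligand arrays, 148, 206 and 220 in untreated obese and 1388, 1289 and 1426 in lean. Every obese array, with or without ligand, was below every lean array, and the log2 difference from lean was -3.73 ± 0.16 with ligand (adjusted p = 2.63e-11). Pla2g2a, a secreted phospholipase A2 (NCBI Gene 29692, chromosome 5), varied more, with 105 to 1039.9 with a median of 376 in the ligand arrays, 1986, 1623 and 1387 in untreated obese and 3932, 3719.6 and 5543 in lean. All ligand arrays were below all lean arrays, as the rule for naming it required, at a log2 difference of -3.57 ± 0.44 (adjusted p = 8.62e-06). Frzb, a secreted antagonist of Wnt signals (NCBI Gene 295691, chromosome 3), had 118 to 207 with a median of 162 with ligand, 143, 195 and 172 in untreated obese and 1572, 1189.9 and 1167 in lean. The ligand and untreated obese values overlapped each other and neither reached lean, a log2 difference of -2.85 ± 0.14 with ligand and -2.81 without. Cldn5, the claudin of endothelial tight junctions (NCBI Gene 65131, chromosome 11), had 223 to 355 with a median of 255 with ligand, 1195, 1154 and 1065 in untreated obese and 1633, 1305 and 1639 in lean. All ligand arrays lay below all 6 arrays without ligand, at a log2 difference from lean of -2.45 ± 0.12 (adjusted p = 7.42e-11). Cyp1b1, a cytochrome P450 acting on oestrogens and aromatic hydrocarbons, had 235 to 981 with a median of 394 with ligand, 2576, 2789 and 3565 in untreated obese and 2055, 1339 and 1838 in lean. The ligand arrays lay below all others, at a log2 difference from lean of -2.02 ± 0.20 (adjusted p = 1.01e-06), and untreated obese fat, at 0.77, was not called (adjusted p = 0.0832). The remaining 5 were the chemokine Cxcl12 (-2.18 ± 0.15; its other probe sets -0.53 and -1.23), the extracellular chaperone Clu (-2.09 ± 0.15), the secreted protein Crispld2 (-2.07 ± 0.16), the matrix protein Spon1 (-1.93 ± 0.32) and Igfbp5, which binds insulin-like growth factors (-1.89 ± 0.11). Lack of overlap with lean was a condition for naming all of them.

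The sequences around the starts of 4 of these genes are printed because PPARγ acts through DNA motifs and these genes show the main patterns: a rise far past untreated obese (Fabp3), a rise called with ligand and not in untreated obese fat (Gys2), and a rise and a fall shared with untreated obese fat (Cela1, Frzb). Each window runs from 250 bases before to 50 after the start, from RefSeq on GRCr8, and capitals mark AGGTCA, the half-site of many nuclear receptors, or the direct repeat AGGNCANAGGNCA that PPAR and RXR bind together. The windows are chr5:147935875-147936174 on the + strand for Fabp3, and on the - strand chr4:177137187-177137486 for Gys2, chr7:133665012-133665311 for Cela1 and chr3:85772047-85772346 for Frzb.
Fabp3: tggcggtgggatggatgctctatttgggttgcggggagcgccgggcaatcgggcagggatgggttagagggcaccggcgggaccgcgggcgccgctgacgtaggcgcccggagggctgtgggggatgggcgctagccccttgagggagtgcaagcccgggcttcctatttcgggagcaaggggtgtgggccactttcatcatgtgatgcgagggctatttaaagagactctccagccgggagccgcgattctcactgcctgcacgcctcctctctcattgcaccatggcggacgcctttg
Gys2: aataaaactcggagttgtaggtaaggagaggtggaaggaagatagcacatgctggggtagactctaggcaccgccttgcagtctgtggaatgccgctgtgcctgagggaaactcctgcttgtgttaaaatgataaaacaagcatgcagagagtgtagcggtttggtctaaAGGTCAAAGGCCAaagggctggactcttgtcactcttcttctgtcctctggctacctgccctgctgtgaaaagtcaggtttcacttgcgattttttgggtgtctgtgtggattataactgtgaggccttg
Cela1: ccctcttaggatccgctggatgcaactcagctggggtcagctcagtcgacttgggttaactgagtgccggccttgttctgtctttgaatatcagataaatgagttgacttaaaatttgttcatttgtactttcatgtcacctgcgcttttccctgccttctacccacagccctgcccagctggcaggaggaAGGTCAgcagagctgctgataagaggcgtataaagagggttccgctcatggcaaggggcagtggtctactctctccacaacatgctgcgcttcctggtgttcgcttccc
Frzb: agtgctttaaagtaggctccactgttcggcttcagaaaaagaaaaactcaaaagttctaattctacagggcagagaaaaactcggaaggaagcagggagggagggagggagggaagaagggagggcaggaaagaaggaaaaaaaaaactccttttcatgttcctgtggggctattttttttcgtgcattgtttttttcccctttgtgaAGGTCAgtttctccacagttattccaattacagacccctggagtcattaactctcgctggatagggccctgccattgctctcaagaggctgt
The Gys2 window held the direct repeat 80 bases before the start, with the half-site inside it, and the Cela1 and Frzb windows held a half-site 59 and 42 bases before theirs. The Fabp3 window held neither string. Searched on both strands, the half-site was in 3 of 12 windows of the 10 largest rises and 2 of 8 windows of the 10 largest falls, against 16.2% of 33469 windows of all genes, and the direct repeat in 1 of 12 and 0 of 8, against 0.415% of all windows. Clu and Spon1 had no window in the table. A match of letters is a description of the sequence and not a bound site.

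The untreated obese arrays sorted the 3380 differences. A difference from lean was said to have stayed where untreated obese fat was called on the same side of lean and ligand-treated fat was not called further out, to have gone further where it was, and to have arisen where untreated obese fat was not called on that side and ligand-treated fat was called against it. Between ligand-treated and untreated obese fat 1963 probe sets (20.6%) were called, 9.01% higher and 11.6% lower. By these rules 338 differences stayed, 151 higher (1.59% of those tested) and 187 lower (1.96%). For 37 of the 338 ligand-treated fat was called back towards lean against untreated obese fat, and for 301 it was not called against it. Another 83 went further, 48 higher (0.504%) and 35 lower (0.368%), and 1237 arose, 586 higher (6.16%) and 651 lower (6.84%), while 1722 met none of the rules. The sorting reuses the lean and ligand arrays in each contrast, so its classes are crossings of thresholds, not independent results. A p that missed the threshold does not show that ligand-treated and untreated obese fat were alike.

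Among the genes that stayed high were a fat cell transporter and a macrophage gene. Slc7a10, a carrier of small neutral amino acids in adipocytes (NCBI Gene 114518), had 419 to 1547 with a median of 1219 in the ligand arrays, 1044, 1119 and 1393 in untreated obese and 237, 286 and 142 in lean. The ligand and untreated obese values overlapped and both lay above lean, with log2 differences from lean of 2.33 ± 0.25 with ligand and 2.36 without. Gpnmb, a glycoprotein of lipid-laden macrophages, had 1586 to 6544 with a median of 2567 with ligand, 5483, 6570.4 and 6805 in untreated obese and 744, 485 and 858 in lean. Its log2 difference of ligand-treated from untreated obese fat was -1.15 (adjusted p = 0.00136), yet was above lean by 2.02 ± 0.23 (adjusted p = 2.8e-06) with no overlap. Cdkn1a, the cell cycle inhibitor p21, had 136 to 404 with a median of 203 with ligand, 185, 247 and 218 in untreated obese and 59.5, 24.3 and 44.1 in lean, a log2 difference from lean of 1.94 ± 0.17. C1qtnf1, a secreted relative of adiponectin, was higher by 1.77 ± 0.17, and Cela1, given above, completes the 5 largest. For these 5 too, lack of overlap with lean was a condition. In each of them untreated obese fat was above lean by at least 1.95 on the log2 scale at the probe set named by the rule. The second probe sets of Cdkn1a and C1qtnf1 gave 1.66 and 1.44 with ligand, and 1.43 and 1.77 in untreated obese fat.

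Genes that stayed low were led by Frzb, given above. Rasgef1b, an exchange factor for small GTPases, had 153 to 473 with a median of 325 with ligand, 628, 355 and 313 in untreated obese and 1565, 980.2 and 964 in lean, with log2 differences from lean of -1.81 ± 0.23 and -0.63 at its other probe set. Rab3b, a GTPase of regulated secretion, had 275 to 472 with a median of 329.9 with ligand, 319.7, 359 and 521 in untreated obese and 1269, 865 and 885 in lean, a log2 difference of -1.52 ± 0.16. F5, coagulation factor V, was at -1.50 ± 0.20. In all of these the ligand arrays lay below the lean arrays. Nfia, a transcription factor, was at -1.46 ± 0.25 at the probe set named by the rule, but at -0.42 and -0.12 at its other probe sets, the last of them not called (adjusted p = 0.375), so the size for the gene is uncertain. Pparg, the receptor of the ligands, also stayed low. Its signals were 1082 to 1783 with a median of 1379.7 in the ligand arrays, 1427, 1297 and 1244 in untreated obese and 2927, 2979 and 2522 in lean. Every obese array, with or without ligand, was below every lean array, at log2 differences from lean of -1.0 ± 0.12 with ligand (adjusted p = 5.45e-06) and -1.07 without (adjusted p = 0.000273).

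Fabp3, Ptprn, Krt79, Bdh1 and Nudt7 were the 5 largest rises that went further than untreated obese fat. Against untreated obese fat their log2 differences were 4.81, 2.45, 1.81, 1.97 and 1.66, while untreated obese fat itself was above lean by 1.12, 0.97, 1.46, 1.06 and 1.13. The 5 largest falls that went further were Slc22a3, Clu, Crispld2, Igfbp5 and Rcan2, an inhibitor of the phosphatase calcineurin. In untreated obese fat Igfbp5 was at -0.71 at the probe set named by the rule and -0.02 at its other one. That other probe set gave -1.45 with ligand, so the class of Igfbp5 is uncertain. Crispld2 was at -1.01 and -0.46 in untreated obese fat, and its second probe set gave -1.82 with ligand. Slc22a3 was at -2.73 against lean in untreated obese fat, and ligand-treated fat at -1.0 against untreated obese fat (adjusted p = 0.000257). Clu had 915 to 2309 with a median of 1246 with ligand, 3283, 2521 and 2729 in untreated obese and 5977, 5058 and 5495 in lean. Rcan2 had 136 to 246 with a median of 175 with ligand, 392, 364 and 347 in untreated obese and 551, 572 and 829 in lean, a log2 difference from lean of -1.74 ± 0.13. For both, the ligand arrays were the lowest, the untreated obese arrays lay between, and the lean arrays were the highest.

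The differences that arose with ligand were led upward by Alb and Gys2, given above, and by 3 further genes. Cpt1b, the muscle form of the enzyme that admits fatty acids to mitochondria (NCBI Gene 25756), had 1909.8 to 3683 with a median of 2822 with ligand, 502, 626 and 572 in untreated obese and 536, 591 and 402 in lean. Untreated obese and lean arrays overlapped and every ligand array was above both, at a log2 difference from lean of 2.42 ± 0.13 (adjusted p = 4.14e-10). Pdk4, the kinase that shuts off pyruvate dehydrogenase, had 1527 to 3503 with a median of 2242 with ligand, 442, 560.1 and 834 in untreated obese and 439, 403 and 402 in lean, a log2 difference of 2.36 ± 0.21. Tnc, the matrix protein tenascin C, had 273 to 1274 with a median of 569 with ligand, 49.8, 126 and 86.2 in untreated obese and 78.2, 110.4 and 81.1 in lean, a log2 difference of 2.42 ± 0.32. The ligand arrays of both lay above the lean arrays. Downward, Pla2g2a, Cldn5, Cxcl12, Cyp1b1 and Spon1 led, all given above. Against untreated obese fat they differed by -2.19, -2.04, -1.85, -2.80 and -1.28 on the log2 scale.

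**Figure D2:**
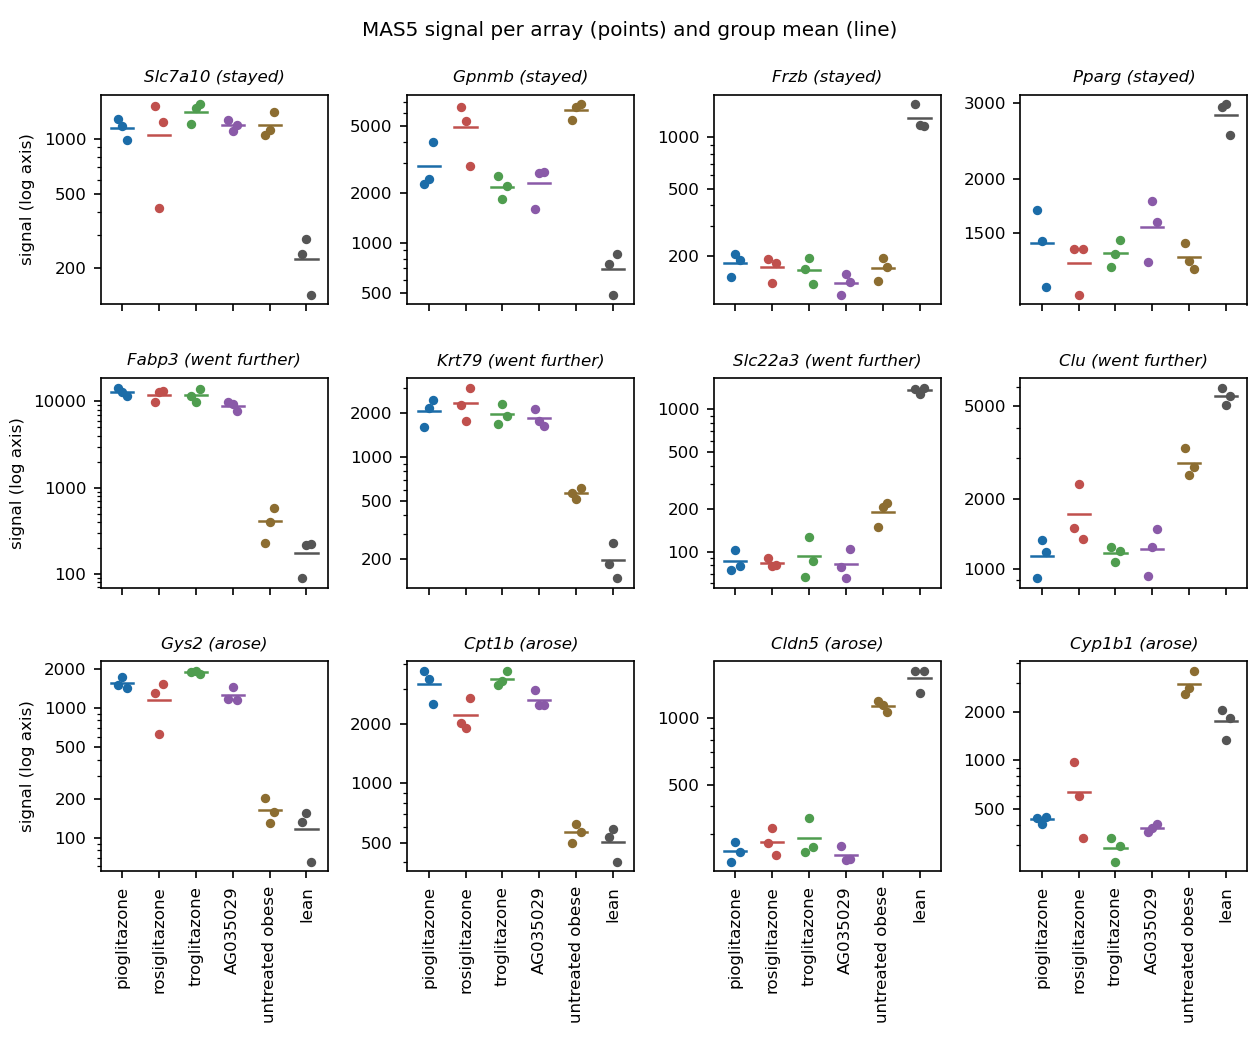
Signal of 12 genes on each adipose array, on a log axis, with pioglitazone, rosiglitazone, troglitazone, AG035029, untreated obese and lean groups from left to right (3 arrays each). In the first row (stayed) the ligand arrays sit on the untreated obese side of lean, in the second (went further) they lie beyond the untreated obese arrays, and in the third (arose) they differ from both.

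Of the 573 probe sets called between untreated obese and lean fat, 421 were called in the same direction with ligand. Another 139 were not called with ligand and 13 were called in the opposite direction. Over all probe sets 14.4% were called higher and 21.1% lower with ligand. Both contrasts subtract the same 3 lean arrays, which favours calls in the same direction, so the 421 do not measure how much persisted. The 13 included Coro1a and genes of fat handling. Coro1a, an actin-binding protein of leukocytes, had 188 to 403 with a median of 241 with ligand, 742, 607 and 523 in untreated obese and 423, 342 and 305 in lean, at log2 differences from lean of -0.41 ± 0.14 with ligand (adjusted p = 0.0307) and 0.77 without. Ligand and lean arrays overlapped, and the call with ligand was lost without the lean replicate 1 array (-0.29, adjusted p = 0.208), without the lean replicate 2 array (adjusted p = 0.0717) and after both rescalings. Ehhadh, the bifunctional enzyme of peroxisomal fat oxidation, had 395 to 729 with a median of 578 with ligand, 169.5, 100 and 97.3 in untreated obese and 239, 230.1 and 164 in lean, at 1.33 ± 0.14 from lean with ligand and -0.72 without. The ligand arrays were the highest, and untreated obese and lean arrays overlapped. Both Alb probe sets were among the 13. Others of the 13, named after their values were seen, were the triglyceride-synthesis genes Dgat1 (0.31 with ligand, -0.49 without) and Agpat2 (0.53, -0.95), and Bckdhb, a subunit of the branched-chain ketoacid dehydrogenase (0.38, -0.46). Among the 139 not called with ligand were Atp1b1, a subunit of the sodium pump, and Gatm, which makes the precursor of creatine, also named after their values were seen. Untreated obese fat was above lean by 2.23 and 2.36, and ligand-treated fat by 0.65 (95% interval -0.16 to 1.45) and 0.26 (-0.12 to 0.64).

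Genes of fatty acid oxidation and respiration were mostly above lean. List members whose difference from lean is given below without an SE were named after their values were seen, and a gene can stand in more than one list. Of the mitochondrial fat oxidation list, 22 of 26 tested members were higher and 2 lower, with a median log2 difference of 0.99, against 14.4% higher, 21.1% lower and a median of -0.07 over all probe sets. In untreated obese fat the median of that list was 0.01. Acaa2, the thiolase that ends each turn of the pathway, had 5784 to 8979 with a median of 6933 with ligand, 2935, 3092 and 3577 in untreated obese and 2558, 2924 and 2382 in lean. Every ligand array was above the lean arrays, at 1.40 ± 0.10 on the log2 scale. Eci2, which shifts double bonds during oxidation, was at 1.32 ± 0.11. The 2 members that fell were Oxct1 (-0.34), which uses ketone bodies, and Cpt1a (-0.33), the liver form of the Cpt1b enzyme. A second Cpt1a probe set was not called, at -0.07 (adjusted p = 0.736). Of the citrate cycle and respiratory chain list, 50 of 52 tested members were higher and 0 lower (0 at an unadjusted limma p under 0.05), with a median log2 difference of 0.66. Mdh2, malate dehydrogenase of the citrate cycle, had 4006 to 6218 with a median of 5528 with ligand, 3369, 3050.3 and 3374 in untreated obese and 2434, 2733 and 2041 in lean, a log2 difference of 1.16 ± 0.11 without overlap. Idh3a, isocitrate dehydrogenase, was at 1.12 ± 0.10, Sdhb, of succinate dehydrogenase, at 0.88 ± 0.10, and Cox6a1, of cytochrome oxidase, at 0.81 ± 0.09. The 2 members not called were Suclg2 (-0.07) and Ogdh (0.34). Over the alternatives 44 to 51 members of this list were called higher and its median was 0.53 to 0.77.

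The peroxisomal list had 9 of 14 tested members higher and 0 lower (0 at an unadjusted limma p under 0.05), with a median log2 difference of 0.50. Its members by smallest adjusted p were Hsd17b4 (0.77 ± 0.08) and Ehhadh, which oxidise very long and dicarboxylic fatty acids, Acot8 (1.26 ± 0.14), a thioesterase, and Decr2 (0.79 ± 0.14), which acts on unsaturated ones. Breakdown of branched-chain amino acids was split. That list had 11 of 18 tested members higher and 3 lower (61.1% and 16.7%, against 14.4% and 21.1% over all probe sets). Its median log2 difference was 0.42, and -0.23 in untreated obese fat. Bcat2, which takes off the amino group, had 358 to 537 with a median of 422 with ligand, 474, 479 and 526 in untreated obese and 674, 736 and 748 in lean, and stayed low at -0.73 ± 0.08 (adjusted p = 4.34e-06) with no overlap. Pccb, a subunit of propionyl-CoA carboxylase, stayed low as well, at -0.68 ± 0.10, against 0.65 for Pcca, the partner subunit. Ivd, isovaleryl-CoA dehydrogenase, was the third to fall (-0.48). Among the members that rose, Acat1, mitochondrial thiolase, had 4059 to 5761 with a median of 5031 with ligand, 2278, 2319 and 2199 in untreated obese and 2557, 2696 and 2528 in lean, a log2 difference of 0.92 ± 0.09, and Mcee, an epimerase of the propionate route, was at 0.96 ± 0.11.

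Known PPAR target genes were mostly higher. Of that list, 17 of 21 tested members were higher and 1 lower, with a median log2 difference of 0.65, and its median in untreated obese fat was 0.04. Besides Fabp3, Cyp4b1 and Pdk4, Cidea, a protein of the lipid droplet surface, had 6653 to 10056 with a median of 8368 with ligand, 4518, 4215 and 4686 in untreated obese and 2409, 2386 and 2182 in lean. The 3 groups did not overlap, and the log2 difference from lean was 1.81 ± 0.10 (adjusted p = 2.93e-10). Me1, malic enzyme, which supplies NADPH, was at 1.87 ± 0.15. Of targets best known in white fat, Fabp4 was at 0.38 and Aqp7, the glycerol channel, at 0.67 ± 0.11, while Plin1 (-0.04, 95% interval -0.33 to 0.25), Lpl (0.24, 0.03 to 0.46) and Pck1 (0.12, -0.15 to 0.39) were not called. Cbl was lower (-0.47). For Gpd1, at 0.65, a second probe set was not called (0.33, adjusted p = 0.222). Of the brown fat list, 4 of the 17 genes were tested and these were higher: Fabp3, Cpt1b, Cidea and Slc27a2 (0.94 ± 0.31), whose call was lost without the lean replicate 2 array (0.61, adjusted p = 0.208), without the lean replicate 3 array (adjusted p = 0.0833) and with no level filter. The uncoupling gene Ucp1 itself was too weak to be tested, with 50.3 to 454 in the ligand arrays, 21.6 to 59.2 in untreated obese and 11.9 to 96.5 in lean, and Dio2 was at 7.50 to 18.9 with ligand.

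**Figure D3:**
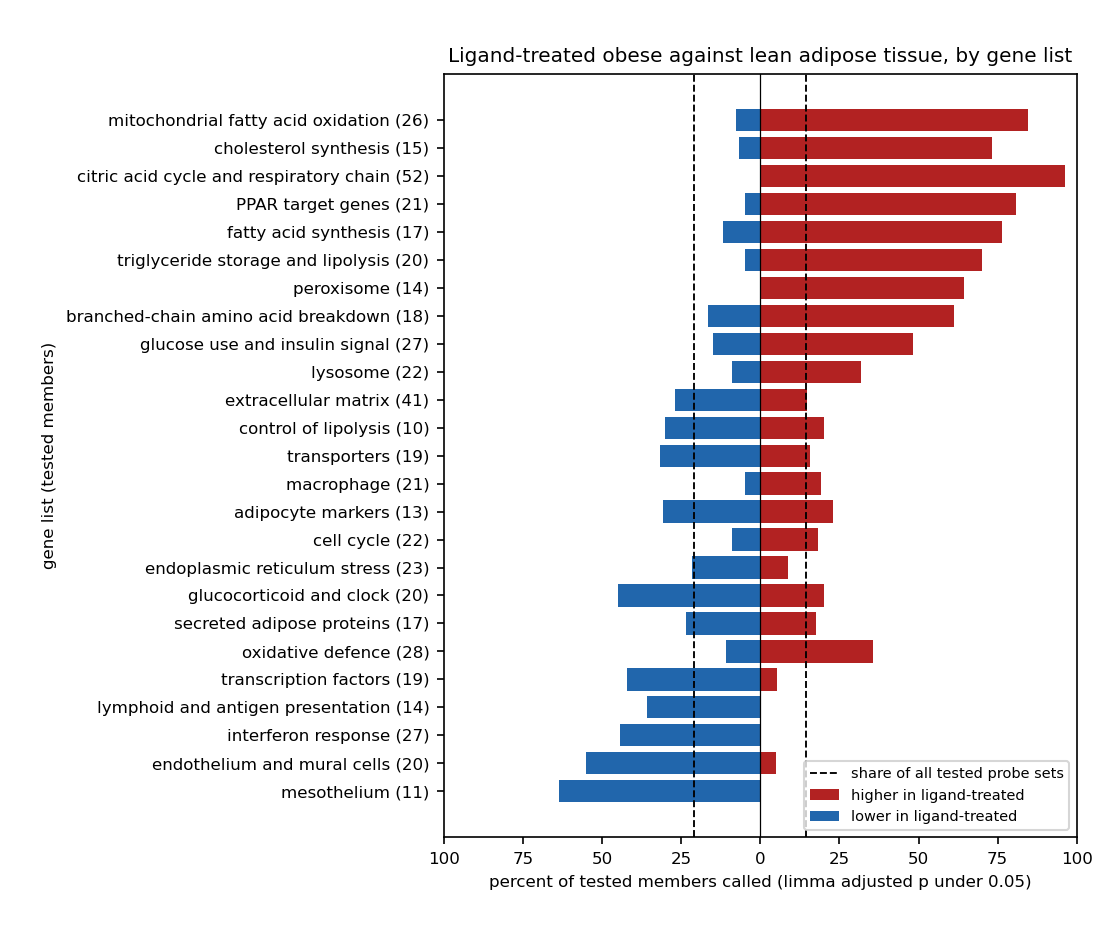
Percent of tested members of 25 gene lists (those with 10 or more tested members) called higher (right) and lower (left) in ligand-treated fat than in lean fat, with dashed lines at the shares over all 9519 probe sets, 14.4% higher and 21.1% lower. The citrate cycle and respiratory chain list has the highest share of higher calls (50 of 52), and the mesothelial list the highest share of lower calls (7 of 11).

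Genes of fat synthesis rose in large part. The lipogenesis list had 13 of 17 tested members higher and 2 lower, with a median log2 difference of 0.61, and 0.28 in untreated obese fat. Elovl6, which lengthens palmitate, had 1081 to 5025 with a median of 2784 with ligand, 1286, 1693 and 1324 in untreated obese and 547, 601 and 364 in lean, and the ligand arrays lay above lean. Pgd, an NADPH source, had 5489 to 7624 with a median of 6369 with ligand, 3989.6, 3797 and 3146 in untreated obese and 2641, 2328 and 1978 in lean. Both went further than untreated obese fat, at log2 differences from lean of 2.44 ± 0.23 and 1.49 ± 0.10, with no overlap with lean. The members that fell were Fads1 (-1.34), the delta-5 desaturase, and Srebf1 (-0.93, with -0.43 at another probe set), the transcription factor of the pathway. Cholesterol synthesis had 11 of 15 tested members higher and 1 lower, with a median log2 difference of 0.85, and 0.55 in untreated obese fat. Fdps, which makes farnesyl diphosphate, was at 1.89 ± 0.19, Nsdhl, a late demethylation enzyme, at 1.57 ± 0.14, and Insig1, a sterol sensor partner, at 1.11 ± 0.10. Cyp51, lanosterol demethylase, had 597 to 1187 with a median of 921 with ligand, 756, 861 and 1179 in untreated obese and 381, 383 and 253 in lean, so it stayed at 1.39 ± 0.16 above lean, with 1.41 in untreated obese fat. A second probe set of Cyp51 gave 0.76 with ligand and 0.41 in untreated obese fat. Msmo1 was the member called lower (-0.41), and the list held 0 lower calls after quantile normalisation, after median centring and without the rosiglitazone replicate 2 array, among other alternatives.

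Of the triglyceride storage and release list, 14 of 20 tested members were higher and 1 lower, with a median log2 difference of 0.59. Mgll, which splits the last fatty acid from glycerol, had 9531 to 15636 with a median of 13702 with ligand, 10792, 9710.3 and 10768 in untreated obese and 5591, 5566 and 4741 in lean, a log2 difference of 1.33 ± 0.09. Plin2, a coat protein of small droplets, stayed high, at 1.41 ± 0.12 with ligand and 1.68 in untreated obese fat. Agpat3, an acyltransferase, was at 1.57 ± 0.14. Pnpla2, the lipase that opens triglyceride breakdown, had 9153 to 15071 with a median of 11994 with ligand, 6471, 6605 and 7787 in untreated obese and 9877, 7909.5 and 7362 in lean. Its ligand and lean arrays overlapped, and the difference was 0.52 ± 0.12 (adjusted p = 0.00207). G0s2, its inhibitor, was lower (-0.61). The hormonal control of lipolysis had 2 of 10 tested members higher and 3 lower (20% and 30%, against 14.4% and 21.1% over all probe sets). The median log2 difference was 0.06. Adrb3, the β3-adrenergic receptor, had 399.5 to 1516 with a median of 1151 with ligand, 327, 697 and 964 in untreated obese and 2329.8, 2681 and 2952 in lean. It stayed below lean without overlap, at -1.42 ± 0.34 (adjusted p = 0.00331), with -2.09 in untreated obese fat. Adcy6, an adenylate cyclase, was at -0.63 ± 0.11, but its other probe set was not called (-0.20, adjusted p = 0.269). Pde3b, the phosphodiesterase through which insulin restrains lipolysis, arose at 0.71 ± 0.13, against -0.50 in untreated obese fat, and Prkar2b, a subunit of protein kinase A, was at 0.34 ± 0.08, a call lost after quantile normalisation (0.07, adjusted p = 0.466) and without the lean replicate 3 array (adjusted p = 0.055).

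The glucose and insulin list had 13 of 27 tested members higher and 4 lower (48.1% and 14.8%, against 14.4% and 21.1% over all probe sets). Its median log2 difference was 0.28. Besides Gys2, Ugp2, which makes UDP-glucose for glycogen, had 4896 to 9983 with a median of 7826 with ligand, 4030, 4353 and 3909.7 in untreated obese and 2435, 2748 and 2621 in lean, a log2 difference of 1.56 ± 0.14 without overlap. Irs3, an insulin receptor substrate of rodent fat cells, was at 1.17 ± 0.11 and Ldhb, a lactate dehydrogenase subunit, at 0.84 ± 0.09. The 4 members that fell were Pik3r1 (-1.25), the regulatory subunit of PI3 kinase, Pygb (-0.41), Insr (-0.46), the insulin receptor, and Irs2 (-0.39). The insulin-responsive transporter Slc2a4 was not called (0.05, 95% interval -0.26 to 0.37).

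Genes of fat cell identity held calls in both directions. The adipocyte list had 3 of 13 tested members higher and 4 lower (23.1% and 30.8%, against 14.4% and 21.1% over all probe sets). Its median log2 difference was 0.01 and changed sign between scalings, from -0.05 to 0.12 over the alternatives. Besides Pparg and Adrb3, Acvr1c, an activin receptor of adipocytes, stayed low. It had 633 to 1209.5 with a median of 981 with ligand, 679, 777 and 1034 in untreated obese and 2724, 2315 and 2214 in lean, a log2 difference of -1.36 ± 0.17 (adjusted p = 8.98e-06) without overlap. Cebpa, the partner factor of Pparg, was at -0.65. Of the transcription factor list, 1 of 19 tested members were higher and 8 lower (5.26% and 42.1%, against 14.4% and 21.1% over all probe sets). Its median log2 difference was -0.19. Nr3c1, the glucocorticoid receptor, was at -0.48 ± 0.09, and Rxrg, an RXR partner of PPARs, was the member that rose (0.54). Lep, the gene of leptin, had 1095 to 5404 with a median of 3551 in the ligand arrays, 6671, 5518 and 6268 in untreated obese and 2455, 2054 and 2354 in lean. Ligand and lean arrays overlapped and the difference from lean was not called, at 0.61 ± 0.26 (adjusted p = 0.0702, 95% interval 0.08 to 1.15). It passed in 5 alternatives, among them median centring (0.72, adjusted p = 0.0302) and without the troglitazone replicate 2 array (adjusted p = 0.00152), while untreated obese fat was above lean by 1.42 (adjusted p = 0.0122). All 7 probe sets of Lepr were too weak to be tested. The adipokine list had 3 of 17 tested members higher and 4 lower (17.6% and 23.5%, near the shares of all probe sets), with a median log2 difference of -0.10. Igfbp3, a carrier of insulin-like growth factors, was lower, with 291 to 599.7 with a median of 464 with ligand, 715, 812 and 912 in untreated obese and 1851, 1058 and 1105 in lean (-1.47 ± 0.16). Nampt, the visfatin gene, arose at 0.89 ± 0.13 and Angptl4, an inhibitor of lipoprotein lipase, at 0.66 ± 0.13, and Apln, apelin, was lower at -0.65 ± 0.14.

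Macrophage genes were near lean in the median. Of their list, 4 of 21 tested members were higher and 1 lower (19.0% and 4.76%, against 14.4% and 21.1% over all probe sets). The list's median log2 difference was 0.01, against 0.46 and 8 members higher in untreated obese fat. The summed signal of 9 macrophage markers was 12294 to 24036 in the ligand arrays (median 16125), 27364 to 27715 in the untreated obese arrays and 11144 to 13698 in the lean arrays. It stood at 23931, 24036 and 18522 in the rosiglitazone arrays. Cd68, a lysosomal glycoprotein of macrophages, had 988 to 1716 with a median of 1190 with ligand, 2233, 2222 and 2417 in untreated obese and 970.2, 887 and 845 in lean, so it stayed above lean at 0.48 ± 0.13 (adjusted p = 0.00785), a call lost without the lean replicate 3 array (adjusted p = 0.0507). Laptm5, of leukocyte lysosomes, was at 0.48 ± 0.14 and overlapped lean, and Cd14, a receptor for endotoxin, was lower at -0.40 ± 0.12. Both calls were lost without the lean replicate 2 array (adjusted p = 0.0628 and 0.119), and that of Cd14 after median centring (adjusted p = 0.0808). By ligand, 9 of 21 members of this list were higher with rosiglitazone (median 0.40). The pioglitazone arrays had 2 higher (median 0.05), the troglitazone arrays 1 (-0.04) and the AG035029 arrays 2 (-0.14). Without the rosiglitazone replicate 2 array 5 were higher and 1 lower of 20, with a median of 0.35, and the difference between ligands was not tested. Antigen presentation and lymphoid genes had 5 of 14 tested members lower and 0 higher (0 at an unadjusted limma p under 0.05). That is 35.7% lower, against 21.1% over all probe sets. Their median log2 difference was -0.24, against 0.31 in untreated obese fat. After median centring 3 were lower and 1 higher, with a median of -0.13. RT1-Db1, an MHC class II chain, had 769 to 1553 with a median of 1114 with ligand, 2795, 2237 and 2671 in untreated obese and 1981, 1734 and 1975 in lean (-0.73 ± 0.13), and Cd74, the invariant chain, was at -0.57 ± 0.12. Cd37, of B cells, was at -0.70 ± 0.18. Of the T and B cell markers, Cd3d, Cd3e, Cd8a, Cd2 and Cd79b had signals under 100 on all 18 arrays, while Cd3g was at 111 to 330, Lck at 302 to 453 and Cd4, which macrophages also carry, at 357 to 994 in the ligand arrays. In lean arrays these 3 were at 170 to 191, 359 to 397 and 610 to 781. Interferon-responsive genes were lower in part. Of their list, 12 of 27 tested members were lower and 0 higher (2 at an unadjusted limma p under 0.05). That is 44.4% lower, against 21.1% over all probe sets. Their median log2 difference was -0.37, and -0.49 in untreated obese fat. After median centring 7 were lower and 2 higher, with a median of -0.26. Usp18 was at -0.88 ± 0.17, Tap1, a peptide transporter, at -0.81 ± 0.17, Gbp2, a GTPase, at -0.77 ± 0.12 and Psmb8, an immunoproteasome subunit, at -0.51 ± 0.12. Gbp2 had 327 to 562 with a median of 439.6 with ligand, 495, 476 and 468 in untreated obese and 769, 797 and 706 in lean, with no overlap between ligand and lean. Of 4 tested mast cell and granulocyte genes, Tpsab1, a mast cell tryptase, arose (0.94 ± 0.14) and Cma1, a chymase, was lower (-0.51 ± 0.17). The call of Cma1 was lost without the lean replicate 1 array (-0.38, adjusted p = 0.169), without the lean replicate 2 array (adjusted p = 0.0621) and after both rescalings.

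**Figure D4:**
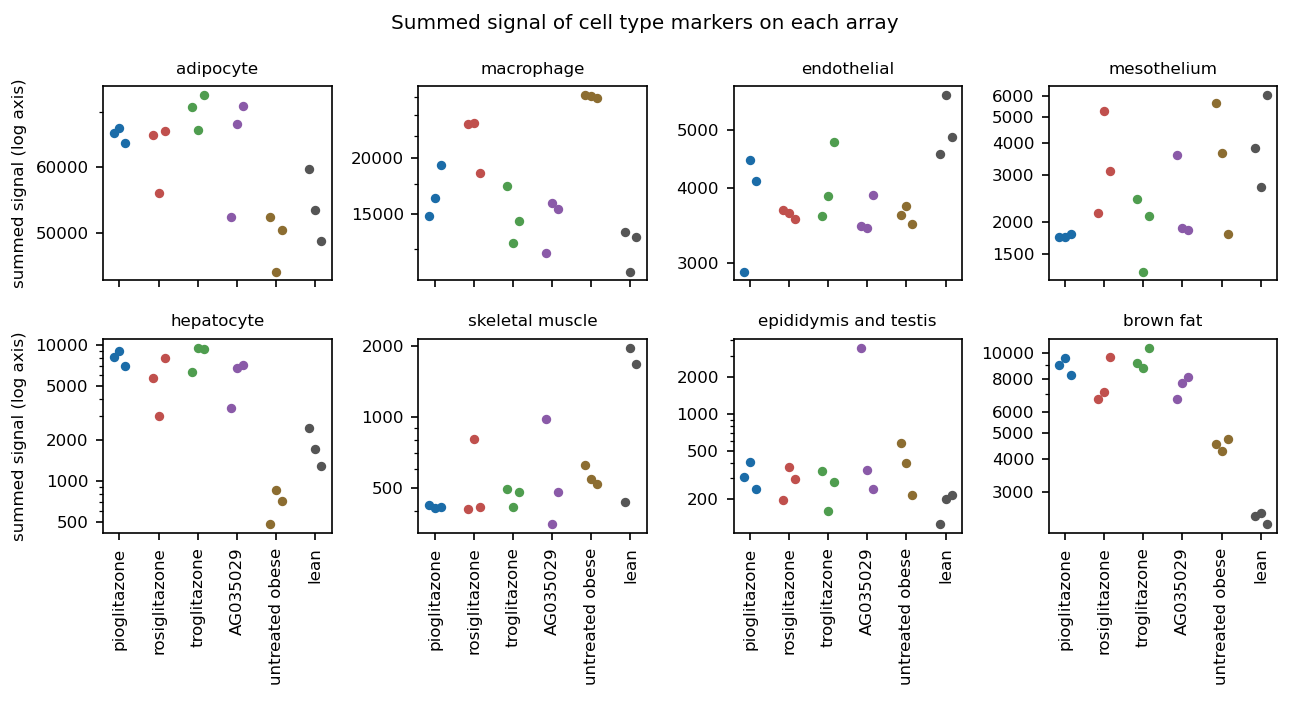
Summed signal of marker genes of 8 cell types on each adipose array, on a log axis, with the ligand groups, untreated obese and lean from left to right. The macrophage sum is highest in untreated obese fat. The endothelial sum, which includes the named fall Cldn5, is lower in most ligand arrays than in the lean arrays. The AG035029 replicate 1 array is the highest for epididymis and testis markers at 3499.

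Genes of vessel walls were lower in part. The endothelial list had 1 of 20 tested members higher and 11 lower (5% and 55%, against 14.4% and 21.1% over all probe sets). Its median log2 difference was -0.53, and -0.41 in untreated obese fat. The summed signal of 5 endothelial markers was 2899 to 4769 in the ligand arrays (median 3656), 3482 to 3737 in the untreated obese arrays and 4567 to 5719 in the lean arrays, with some overlap. That sum includes Cldn5, named above for its large fall, at 223 to 355 with ligand and 1305 to 1639 in lean. Kdr, also in the sum, was at 1556 to 2864 with ligand and 1266 to 1507 in lean. Pecam1, Tie1 and Vwf overlapped lean, and a fall of the sum without Cldn5 was not tested. Emcn, a sialomucin of capillaries, had 529.6 to 754 with a median of 647 with ligand, 1032, 1123 and 1079 in untreated obese and 961, 1774 and 1659.5 in lean (-1.16 ± 0.15). Rgs5, of pericytes, had 425 to 849 with a median of 621 with ligand, 973, 1167 and 1141 in untreated obese and 1427, 1755 and 1918 in lean (-1.43 ± 0.15), and Icam2, an adhesion molecule, was at -1.01 ± 0.12. The ligand arrays were below the lean arrays in each. Kdr, the VEGF receptor, was the member that rose (0.54), and for Egfl7 (-0.59) a second probe set was not called (-0.10, adjusted p = 0.525). The mesothelial list had 7 of 11 tested members lower and 0 higher (0 at an unadjusted limma p under 0.05). That is 63.6% lower, against 21.1% over all probe sets, with a median log2 difference of -1.27. Its marker sum was 1289 to 5265 in the ligand arrays (median 1994), 1788 to 5678 in the untreated obese arrays and 2701 to 6063 in the lean arrays. Wt1, a transcription factor of mesothelium, had 132 to 257 with a median of 179 with ligand, 288, 185 and 248 in untreated obese and 494, 352 and 688 in lean (-1.40 ± 0.18), Gpm6a was at -1.44 ± 0.25 and Efemp1, a fibulin, at -1.27 ± 0.22. The keratins Krt8, Krt18 and Krt19 were not called, at -0.17, 0.68 and -0.56. Of skeletal muscle genes, 4 of 6 tested were lower (66.7%, against 21.1% over all probe sets). They included Ckm (-0.84 ± 0.22), Myl1 (-0.82 ± 0.20) and Atp2a1 (-0.61 ± 0.19). The lean replicate 2 and 3 arrays carried Ckm at 580.4 and 450.4 and Acta1 at 785 and 658, above the other lean array, and the part of muscle RNA in these falls was not tested. Without the lean replicate 3 array none of the 3 was called (adjusted p = 0.0635, 0.0512 and 0.0999 in that order), and without the lean replicate 2 array Ckm was not (adjusted p = 0.105). Myh1 was higher (1.02 ± 0.15).

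Matrix genes held calls in both directions, at shares near those of all probe sets. Of their list, 6 of 41 tested members were higher and 11 lower (14.6% and 26.8%, against 14.4% and 21.1% over all probe sets). The median log2 difference was 0.08. The list's median turned to -0.12 after quantile normalisation, where 14 members were lower, and to 0.19 after median centring, where 10 were higher. Col12a1, a fibril-associated collagen, arose with 759.7 to 2022 with a median of 1037 with ligand, 458, 561 and 564 in untreated obese and 265, 234 and 368 in lean (1.80 ± 0.22). Col14a1, another of that kind, was lower at -0.92 ± 0.11, as was Pdgfra, the receptor that marks fat cell precursors, at -0.71 ± 0.09. Mmp2, a gelatinase, was at -1.09 ± 0.14, but its other probe set was not called (0.07, adjusted p = 0.833). The main fibrillar collagens Col1a1 (0.27), Col1a2 (0.25) and Col3a1 (0.11) were not called. Of nerve genes Mbp, of myelin, was higher, with 739.8 to 1958 with a median of 1217 with ligand, 387, 434 and 437 in untreated obese and 201, 318 and 230.2 in lean (2.20 ± 0.15), and Pmp22 was lower (-0.69 ± 0.09). S100b and Gfap of the same list were not called (0.04 and 0.21). Of red cell genes Alas2, of haem synthesis, was lower (-1.0 ± 0.24) with overlap, and Hbb was not called (-0.06). Of 6 liver plasma protein genes, Alb was higher and Vtn, vitronectin, lower (-1.20 ± 0.19). Clu was the one tested gene of the epididymis and testis list.

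Lists of stress and housekeeping functions held calls in both directions. The lysosomal list had 7 of 22 tested members higher and 2 lower (31.8% and 9.09%, against 14.4% and 21.1% over all probe sets). Its median log2 difference was 0.11. Atp6v1a, of the proton pump, was at 0.77 ± 0.08 and Ctsz, a cathepsin, at 0.98 ± 0.16, and both were higher in untreated obese fat too (0.63 and 1.34). Ctsh (-0.87 ± 0.09) and Lamp1 (-0.42 ± 0.08) were lower. The endoplasmic reticulum stress list had 2 of 23 tested members higher and 5 lower (8.70% and 21.7%, against 14.4% and 21.1% over all probe sets), with a median log2 difference of -0.05. After median centring 3 were higher and 3 lower, and the median was 0.06. Xbp1, its transcription factor, had 1722 to 2496 with a median of 2042 with ligand, 2686, 2309 and 2212 in untreated obese and 7752, 4811 and 4118 in lean, and stayed low at -1.36 ± 0.14 with no overlap. Pdia4, a chaperone, was at -0.92 ± 0.10, and Atf4 (0.42 ± 0.09) and its amino acid target Asns (0.44 ± 0.10) were higher. The glucocorticoid and clock list had 4 of 20 tested members higher and 9 lower (20% and 45%, against 14.4% and 21.1% over all probe sets). Its median log2 difference was -0.10. The falls included the clock repressors Nr1d1 (-1.45 ± 0.27) and Nr1d2 (-1.44 ± 0.22) and the clock output factor Dbp, which had 151 to 706 with a median of 409 with ligand, 667, 414 and 401 in untreated obese and 795, 1371 and 897 in lean (-1.42 ± 0.25). The hour of tissue collection is not given in the sources used here. Oxidative defence had 10 of 28 tested members higher and 3 lower (35.7% and 10.7%, against 14.4% and 21.1% over all probe sets). Its median log2 difference was -0.13. Ephx2, soluble epoxide hydrolase, was at 0.93 ± 0.12, Sod1 at 0.84 ± 0.11 and Prdx3, the mitochondrial peroxiredoxin, at 0.71 ± 0.09, while Gstp1, a glutathione transferase, was lower (-0.42). The cell cycle list had 4 of 22 tested members higher and 2 lower (18.2% and 9.09%, against 14.4% and 21.1% over all probe sets). The median log2 difference was -0.02. Cks2 stayed high (0.96 ± 0.22), Ccnd1, cyclin D1, was at -1.09 ± 0.17 and Tubb6 at -1.63 ± 0.31, and Top2a (-0.12) and Cdk1 (0.18) were not called. The transporter list had 3 of 19 tested members higher and 6 lower (15.8% and 31.6%, against the same shares), with a median log2 difference of 0.02. Slc6a6, the taurine carrier, was at -1.05 ± 0.12. Slc1a3, a glutamate carrier, was at -1.26 ± 0.15, where its other probe sets gave 0.34 and -1.04, so its direction is uncertain.

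Each ligand was also set against lean on its own. Because doses and times are not given, the values stand side by side and no pair of ligands was compared, and all 4 contrasts share the lean arrays. Pioglitazone had 2630 calls (27.6% of those tested), 1146 higher (12%) and 1484 lower (15.6%). Rosiglitazone had 1952 (20.5%), 832 higher (8.74%) and 1120 lower (11.8%). Troglitazone had 2585 (27.2%), 1114 higher (11.7%) and 1471 lower (15.5%), and AG035029 had 2385 (25.1%), 1025 higher (10.8%) and 1360 lower (14.3%). After median centring the higher share of calls was 61.5%, 62.4%, 68.3% and 53.0% in that order. For 1293 probe sets (13.6%) each ligand on its own was called. An F-test among the 4 ligand groups called 3 probe sets (0.0315%). In the order pioglitazone, rosiglitazone, troglitazone and AG035029, Fabp3 lay above lean by 6.14, 6.01, 5.99 and 5.59 on the log2 scale. Slc22a3 lay at -3.73, -3.75, -3.66 and -3.78 in the same order, and Pparg at -0.99, -1.13, -1.05 and -0.85. All 4 ligands were on the same side of lean for each of these, which for Fabp3 and Slc22a3 followed from the rule that named them. Of the 52 citrate cycle and respiratory chain members tested, 45, 39, 51 and 43 were higher than lean in that order. Of 26 fat oxidation members, 22, 18, 23 and 22 were higher. Of 18 branched-chain amino acid members, 7, 4, 11 and 11 were higher. Rosiglitazone had the fewest in each, a difference that was not tested. Without its replicate 2 array, rosiglitazone had 40 higher of 52, 19 of 26 and 5 of 18, and 2098 calls in all.

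**Figure D5:**
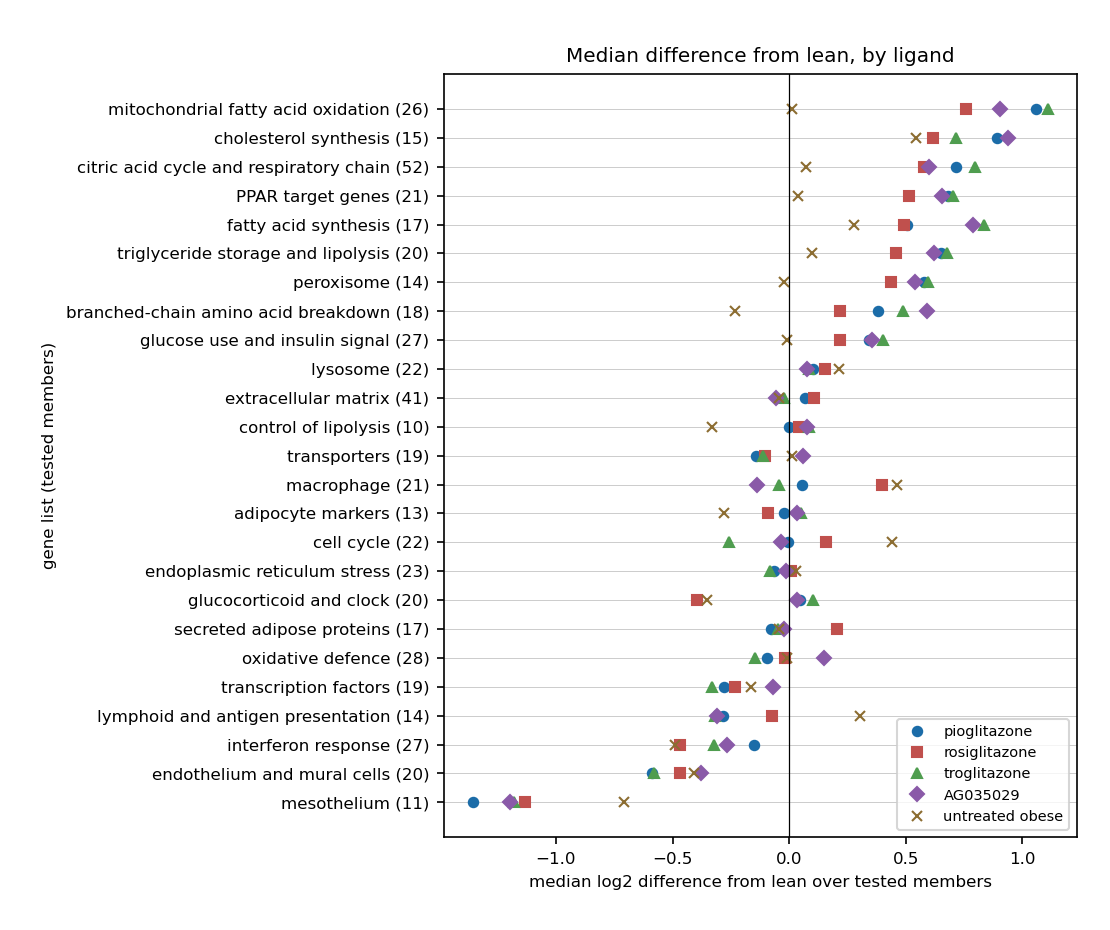
Median log2 difference from lean of each gene list for each ligand and for untreated obese fat, on the log2(signal + 20) scale. The 4 ligand points of the oxidation, respiration and cholesterol lists lie together to the right of 0, while the untreated obese points of the fat oxidation and respiration lists lie near 0, at 0.01 and 0.07.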

How the data were processed

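Biotin-labelled cRNA from pooled RNA was hybridised to Affymetrix Rat Expression 230A arrays, per the labels' protocols, 1 array per pool of 2 rats. The deposited values are MAS5 signals, a linear intensity per probe set, per the submitters' processing notes; the 2% trimmed mean was close to 500 on every adipose array, so the authors had scaled the deposited signals to a common mean. No log transform, background correction or normalisation was added apart from log2(signal + 20). The table holds 15923 probe sets, and 57 controls were dropped. Among the 15866 that remain, 12783 carry 1 gene symbol, 312 several and 2771 none in the platform annotation; a probe set with several or none is not named. The 36 value columns of liver and muscle were not used.

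The 9519 probe sets above the 40th percentile of mean signal over the 18 adipose arrays were tested with limma 3.58.1 in R 4.3.3, in 1 fit of 6 group means (12 residual degrees of freedom) with a trended variance. The ligand arrays were 12 of those 18, so the filter favoured genes high with ligand over genes high only in lean. Acta1, at 55.0, 785 and 658 in lean and a median of 18.15 with ligand, was not tested. The contrast was the mean of the 4 ligand groups minus lean, with Benjamini-Hochberg adjustment over all 9519 and a threshold of 0.05, two-sided. The number of arrays limits the precision. Nothing in the labels ties arrays to separate days or batches, and each array stands for a pool, so p-values measure the spread between pools. Replicate numbers did not pair the arrays: residuals of same-numbered arrays correlated at 0.0184 on average over 45 pairs and those of other numbers at -0.0088.

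Members of the comparison and the 32 gene lists were chosen with earlier results of these data known. A gene with several probe sets entered a list through the one with the highest mean. Genes were named by rule: among probe sets with 1 symbol whose ligand and lean arrays did not overlap, the 10 largest rises and falls and the 5 largest per direction that stayed, went further or arose; up to 4 called members of each list by smallest adjusted p; any with an adjusted p under 0.05 in the F-test among ligands; and Pparg, Lepr, Lep and Adipoq. On simulated data with 200 changed probe sets of 9519, the fit for ligand mean minus lean recovered 52% of changes of 0.5, 94% of 1, 98% of 2 and 100% of 3 on the log2 scale, and 7.03% of its calls were false. The simulated noise was normal and independent between probe sets, and groups were equal apart from the 200. It held no arrays that stood apart and no scaling shift, so these rates need not hold for the real arrays. Alternatives covered constants of 5 and 80, no filter and the 60th percentile, quantile normalisation, median centring, array weights, a threshold of 0.01, a replicate block, the 15 arrays alone, and each array left out. Leaving out both arrays that stood apart was chosen after seeing the data.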

Additional observations from a re-analysis of the deposited data

Results flagged for a closer look

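An F-test in limma asked, for each of the 9519 probe sets, whether the 4 ligand-minus-lean differences were unequal, which is the same as asking whether the ligand groups differ. At an adjusted p under 0.05 it called 3 (0.0315%). Doses and times are not given, so no compound was set against another.

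F3, tissue factor, which starts blood clotting, had signals of 1808, 1907 and 1895 with pioglitazone, 1277, 1181 and 1344 with rosiglitazone, 1740.1, 1882 and 2038 with troglitazone, 2831, 2250.1 and 2302 with AG035029, 1129, 1097 and 1002 in untreated obese fat and 2339, 2515 and 2260.2 in lean fat (F-test adjusted p = 0.00424). The AG035029 arrays overlapped the lean arrays, the rosiglitazone arrays were nearest to untreated obese fat, and every ligand array was above the untreated obese arrays. Cotl1, a coactosin-like protein that binds actin filaments, had 564, 429.6 and 885 with pioglitazone, 904, 1012 and 781 with rosiglitazone, 486, 414 and 362 with troglitazone, 279, 323 and 211 with AG035029, 2029, 1388 and 1772 in untreated obese fat and 597, 535 and 537 in lean fat (adjusted p = 0.00809). Here the AG035029 arrays were below lean and the rosiglitazone arrays above it, and the mean of the ligands was not called against lean (-0.16 ± 0.17 SE, adjusted p = 0.499). The third probe set, which has no gene symbol, had 605, 544 and 612 with pioglitazone, 636, 618 and 732 with rosiglitazone, 714, 1089 and 497 with troglitazone, 1952, 5529.6 and 4379.5 with AG035029, 1229, 1629.6 and 1963 in untreated obese fat and 1632, 746 and 899.7 in lean fat (adjusted p = 0.00424). Its AG035029 values spread from 1952, on the array that carried epididymis and testis markers, to 5529.6, so replicates of that ligand differed widely.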

How the results depend on the processing

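With all arrays the ligand mean minus lean gave 3380 calls, and leaving out 1 array at a time gave 2421 (without lean replicate 3) to 3535 (without rosiglitazone replicate 2). The same ranges were 1894 to 2770 for pioglitazone, 1241 to 2098 for rosiglitazone (1241 without its replicate 3 and 1257 without lean replicate 3), 1875 to 2699 for troglitazone and 1729 to 2534 for AG035029. They were 196 to 396 for differences that stayed, 34 to 106 for those that went further, both lowest without untreated obese replicate 3, and 813 to 1409 for those that arose, lowest without untreated obese replicate 1. At an adjusted p under 0.01 the counts were 2153 for the ligand mean, 1436, 928, 1437 and 1280 for pioglitazone, rosiglitazone, troglitazone and AG035029, 135 stayed, 28 went further and 712 arose, fewer by construction for the contrasts; for the classes the cause was not tested. Array weights gave 626 that stayed and 162 that went further, and 3945 calls for the ligand mean; the cause was not tested. Fitting the 15 arrays alone gave 3244.

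The replicate block gave 3341 calls for the ligand mean, 2625, 1947, 2583 and 2364 for the single ligands, and 348, 77 and 1228 in the 3 classes, and moved none of these counts by more than 1.5 times. No named probe set that was called changed direction in any alternative that tested it, but the median of 14 of the 32 gene lists took the other sign in at least 1 alternative, among them skeletal muscle (-0.81 to 1.02), plasma proteins (-0.21 to 1.15), extracellular matrix (-0.12 to 0.19) and macrophage genes (-0.07 to 0.12). The level filter changed which members were tested, so a median could rest on few of them. For skeletal muscle 1.02 is the difference of Myh1 itself. After both rescalings that median was -0.55, and the median of plasma proteins was 0.02. Of the 130 named probe sets 127 were called, and 117 kept their call and direction in every alternative in which they were tested. Some fell below the level filter in an alternative and were not tested there. Slc22a3 was tested in 23 alternatives and Frzb in 26, where most had 27. Prkar2b, Slc27a2, Cd68, Laptm5, Cd14, Coro1a, Cma1, Myl1, Ckm and Atp2a1 lost their call in at least 1. The share of calls in each direction followed the scaling, as given above. The limits are 3 pools per group, unknown doses and times, MAS5 signals whose probe-level data were not used here, 6347 probe sets too weak to test, and lean rats that differ from the ligand groups in genotype, weight and treatment together.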
